A study of Mus musculus with 9 samples.

Results

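Retinal ganglion cells are the output neurons of the retina, and their axons leave the eye together as the optic nerve. The 10 genes described here are markers of these cells and the neurofilament genes: Rbpms, Pou4f1, Pou4f2, Sncg, Nefl, Nefm, Nefh, Thy1, Slc17a6 and Isl1. They were taken by gene symbol from tables that hold 22587 genes, all 10 were found, and all 10 passed the filter on low counts, which kept 21287 genes. Counts were scaled to the library total (counts per 1 M reads, CPM) within each library with a normalization factor. The 10 genes were ranked against each other by level only in the deposited FPKM, which corrects for transcript length. Sums of CPM over a gene list are not corrected in this way.

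The RNA came from whole eyeballs of wild-type BALB/C females, mice of an albino strain, with 3 libraries in each of 3 groups. The T.chuii group received scopolamine by intraperitoneal injection and 300 mg/kg of the microalga Tetraselmis chuii. The DES group received scopolamine and water, and the CON group received water with no injection. Treatment began at 6 weeks of age and ran for 2 weeks, and tissue was taken at postnatal day 56. Scopolamine is an antagonist of muscarinic acetylcholine receptors that is used to induce dry eye in mice. CON mice were not injected, so the drug and the injection cannot be told apart. How many animals a library holds, and how much optic nerve stayed on an eyeball, was not stated. The p-values below therefore measure the spread between libraries, which may be technical.

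Pou4f1 and Pou4f2 encode POU-domain transcription factors (Brn3a and Brn3b) that mark most ganglion cells, and Isl1 encodes a LIM-homeodomain factor that acts with Pou4f2 in the development of these cells in mice. Neurofilaments are the intermediate filaments of large axons, built from a light (Nefl), a medium (Nefm) and a heavy subunit (Nefh). The remaining markers have different functions: Rbpms encodes an RNA-binding protein, Sncg encodes gamma-synuclein, Thy1 encodes a surface glycoprotein, and Slc17a6 encodes VGLUT2, the transporter that loads glutamate into the synaptic vesicles of ganglion cells. Few of these genes are restricted to ganglion cells in a whole eye: Isl1 is also made in ON bipolar and starburst amacrine cells, Rbpms in smooth muscle, Thy1 in T cells and fibroblasts, and neurofilaments in other neurons and in peripheral nerves.

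RefSeq promoters (the 250 bases before a transcript start, GRCm38.p6) were matched for 5 of the 10 genes: Pou4f1, Pou4f2, Isl1, Sncg and Slc17a6. Rbpms, Nefl, Nefm, Nefh and Thy1 had no entry. Those of the 3 transcription factor genes are printed because they are the regulators of ganglion cell identity among the members. Levels of these 3 genes moved together across the libraries, but so did those of all members except Rbpms, and shared regulation was not tested. Capitals mark matches to CCAAT, to GGGCGG (the core of a GC box) or to CAGCTG (an E-box), searched on both strands. All 3 genes lie on the minus strand, and the windows are chr14:104468000-104468249 for Pou4f1, chr8:78436648-78436897 for Pou4f2 and chr13:116309689-116309938 for Isl1.
Pou4f1: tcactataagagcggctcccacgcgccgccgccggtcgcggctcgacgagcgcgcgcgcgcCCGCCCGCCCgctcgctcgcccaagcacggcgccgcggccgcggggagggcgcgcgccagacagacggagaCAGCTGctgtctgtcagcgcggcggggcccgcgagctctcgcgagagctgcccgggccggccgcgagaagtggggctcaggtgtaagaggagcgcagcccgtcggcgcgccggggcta
Pou4f2: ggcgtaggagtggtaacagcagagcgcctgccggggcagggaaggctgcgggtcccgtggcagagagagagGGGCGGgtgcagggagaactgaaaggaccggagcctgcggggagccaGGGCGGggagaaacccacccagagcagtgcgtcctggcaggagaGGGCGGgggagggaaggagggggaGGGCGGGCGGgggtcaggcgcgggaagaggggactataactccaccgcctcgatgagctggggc
Isl1: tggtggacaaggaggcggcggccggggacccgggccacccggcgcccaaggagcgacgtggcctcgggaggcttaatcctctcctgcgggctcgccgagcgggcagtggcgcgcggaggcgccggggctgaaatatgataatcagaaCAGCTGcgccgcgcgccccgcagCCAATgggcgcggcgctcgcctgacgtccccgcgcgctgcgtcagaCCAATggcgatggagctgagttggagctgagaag
Both Pou4f promoters held GGGCGG, with 2 matches in Pou4f1 and 5 in Pou4f2, some of which overlap each other. Isl1 held 2 CCAAT matches and no GC box core. The E-box was matched once in Pou4f1 and once in Isl1. Among 32851 promoters of the same length, 33.8% held the CCAAT motif, 32.7% the GC box core and 13% the E-box. The TATA box, searched as TATAAA, was in 12.4% of them and in none of the 3. The promoters were rich in G and C, with 78% in Pou4f1, 70.8% in Pou4f2 and 71.2% in Isl1, where the median of all promoters was 52.4%. Sncg (61.6%) and the first of 2 Slc17a6 promoters (53.2%) held 1 GGGCGG match each.

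The libraries of each group differed in their content of rod photoreceptor reads. Library totals lay between 39.1 and 64.6 M reads. The summed reads of 14 rod photoreceptor genes made up 0.89%, 3.43% and 3.85% of all reads in T.chuii, 1.6%, 4.52% and 3.2% in DES and 3.36%, 1.59% and 3.52% in CON. T.chuii 1, DES 1 and CON 2 were thus low in rod reads, 1 library in each group, and are called rod-poor below. Each of the 14 rod genes, whose sum set this label, was lower in these 3 libraries than in the other 6. Of genes that played no part in the label, 6 of 8 corneal epithelium genes and 4 of 8 smooth muscle genes were higher there. The other 6 libraries held 3.2% to 4.52% rod reads.

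In FPKM, the 10 genes covered a wide range of levels. Sncg stood first with a median of 73.5 FPKM over the 9 libraries (21 to 96), followed by Nefl with 51.3 (12.9 to 69.7). Sncg was above Nefl in 7 of 9 libraries. Isl1 (22.7) and Rbpms (21.8) came next, and their order was not settled, since Isl1 was the higher in 5 of 9 libraries. Nefm had a median of 6.95 FPKM, Slc17a6 of 5.13 and Nefh of 4.95, and Nefm was above Slc17a6 in all 9 libraries while Slc17a6 was above Nefh in only 3. Thy1 had a median of 2.61 FPKM. The Pou4f genes were lowest, at 0.653 FPKM for Pou4f1 and 0.639 for Pou4f2, with Pou4f1 the higher in 6 of 9 libraries. Thy1 exceeded Pou4f1 in all 9 libraries.

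The genes lie on 6 chromosomes of GRCm38.p6, the assembly also named mm10. Chromosome 14 holds Sncg (34370274 to 34374669), Nefl (68083863 to 68089095), Nefm (68119545 to 68125004) and Pou4f1 (104461675 to 104468118). Chromosome 8 holds Rbpms (33782643 to 33929922) and Pou4f2 (78433009 to 78436647). Slc17a6 lies on chromosome 7 (51621830 to 51671126), Thy1 on chromosome 9 (44043384 to 44048579), Nefh on chromosome 11 (4938754 to 4948064) and Isl1 on chromosome 13 (116298270 to 116309688). Nefl and Nefm are neighbours, 30.4 kb apart and on opposite strands.

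No difference between groups passed the test for any of the 10 genes. Limma-voom, which models the log2 counts of all genes with their precision, called 0 of 21287 genes in each of the 3 comparisons at an adjusted p of 0.05, which is 0% of the genes tested. Unadjusted p was under 0.05 for 233 genes in T.chuii against DES, 912 in T.chuii against CON and 235 in DES against CON, and for none of the 10 members. Limma-trend on log2(FPKM + 0.1) also called 0 genes, with 267, 1083 and 294 at an unadjusted p under 0.05 in the same order of comparisons. In bulk RNA from a whole eye, fewer cells of a type and less RNA per cell cannot be told apart.

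**Figure D1:**
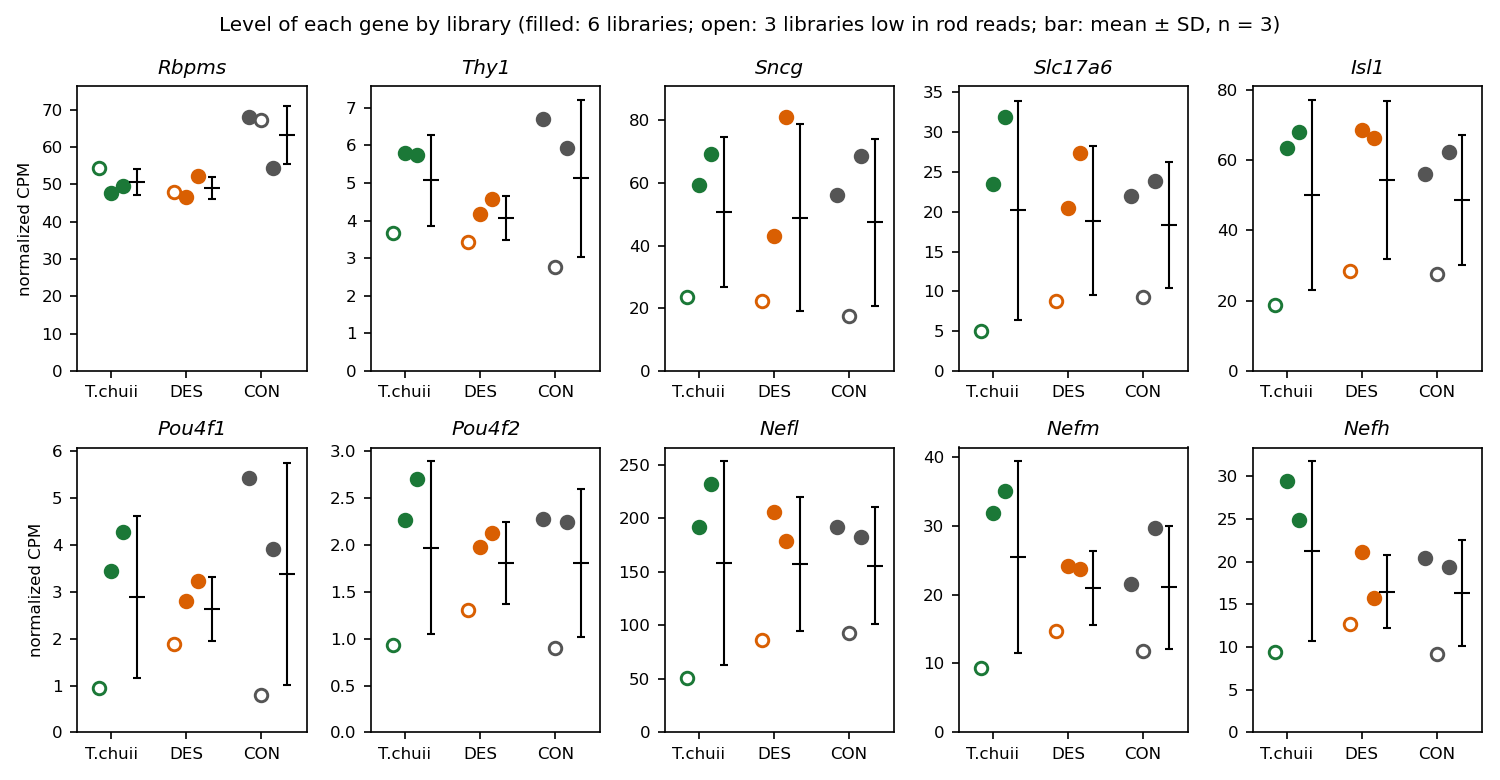
Level of each of the 10 genes in normalized CPM (vertical axes from 0) in the T.chuii, DES and CON libraries. Each point is 1 library, open points are the 3 libraries low in rod reads (T.chuii 1, DES 1, CON 2), and the bar beside each group is the mean ± SD (n = 3). The open points are the lowest of their group in every panel except Rbpms, where they are the lowest in no group.

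Among the transcription factors, Pou4f1 stood at 0.955, 3.45 and 4.27 CPM in the T.chuii libraries, at 1.89, 2.8 and 3.23 CPM in the DES libraries and at 5.43, 0.792 and 3.93 CPM in the CON libraries. The low value of each group was its rod-poor library, and all groups overlapped. The lowest values rest on few reads, 41 in T.chuii 1 and 46 in CON 2. The log2 change was -0.065 ± 0.74 (SE) in T.chuii against DES, -0.040 ± 0.73 in T.chuii against CON and 0.025 ± 0.73 in DES against CON. Pou4f2 was at 0.932, 2.27 and 2.7 CPM in T.chuii, 1.3, 1.97 and 2.13 CPM in DES and 2.28, 0.895 and 2.25 CPM in CON. All 3 groups overlapped here as well, and Pou4f2 drew only 40 to 143 reads per library. Its log2 changes were 0.040 ± 0.50, 0.13 ± 0.50 and 0.091 ± 0.50 in the same order of comparisons.

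Isl1 was the most abundant of the 3 factors in FPKM. It had 18.8, 63.4 and 68 CPM in T.chuii, 28.4, 68.4 and 66.3 CPM in DES and 56.2, 27.6 and 62.2 CPM in CON. Outside the rod-poor libraries it kept within 56.2 to 68.4 CPM in all groups. Its log2 change was -0.22 ± 0.53 in T.chuii against DES, -0.077 ± 0.53 in T.chuii against CON and 0.14 ± 0.53 in DES against CON, each within 1 SE of 0. The ratio of Pou4f1 to Pou4f2 in FPKM averaged 0.919 ± 0.196 in T.chuii, 0.989 ± 0.0864 in DES and 1.09 ± 0.549 in CON (SD, n = 3). It was lowest, at 0.498, in CON 2 and highest, at 1.58, in CON 1, so the widest spread was inside the CON group. The CON 2 value rests on 46 reads of Pou4f1 and 52 of Pou4f2. The transcript length that reads per FPKM imply for Pou4f1 ran from 4.42 kb to 5.86 kb, and was longest in CON 2.

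Rbpms, whose RNA-binding product is a common label for ganglion cells in retinal whole mounts, was the 1 member of the 10 that was not low in the rod-poor libraries. It had 54.5, 47.8 and 49.5 CPM in T.chuii, 48, 46.7 and 52.2 CPM in DES and 68.2, 67.3 and 54.4 CPM in CON. Every DES library lay below every CON library, and T.chuii overlapped CON only through T.chuii 1 and CON 3. The mean was 50.6 ± 3.49 CPM in T.chuii, 49.0 ± 2.88 CPM in DES and 63.3 ± 7.73 CPM in CON (SD, n = 3). The log2 change was -0.37 ± 0.18 in DES against CON (limma-voom adjusted p = 1, 95% interval -0.77 to 0.039) and -0.32 ± 0.18 in T.chuii against CON (limma-voom adjusted p = 0.986). T.chuii differed from DES by 0.048 ± 0.18.

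Rbpms in DES against CON was the only member of the 10 whose groups did not overlap in CPM, in any of the 3 comparisons. Over all genes tested, the groups did not overlap for 1.65% lower and 2% higher in DES than in CON, for 2.49% lower and 2.3% higher in T.chuii than in DES, and for 2.97% lower and 5.45% higher in T.chuii than in CON. In FPKM, Rbpms averaged 20.3 ± 1.8 in T.chuii, 19.3 ± 3.45 in DES and 26.9 ± 5 in CON. RefSeq lists 18 transcripts of Rbpms, and its reads per FPKM corresponded to a transcript length of 2.25 to 2.98 kb, a coefficient of variation of 9.32% over the libraries. For the 7 members with a single RefSeq transcript this variation was 3.6% to 3.74%. It was 8.21% for Pou4f1, with 5 transcripts, and 3.7% for Slc17a6, with 3. Smooth muscle genes, summed over 8 of 8 listed, were at 373 to 956 CPM in T.chuii, 321 to 845 CPM in DES and 374 to 687 CPM in CON. These ranges overlapped, and their part in the Rbpms values was not tested.

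Thy1 was at 3.68, 5.8 and 5.73 CPM in T.chuii, 3.43, 4.18 and 4.58 CPM in DES and 6.69, 2.76 and 5.94 CPM in CON. The DES libraries spread least, and they lay inside the range of CON. The log2 change was 0.31 ± 0.38 in T.chuii against DES, 0.074 ± 0.37 in T.chuii against CON and -0.23 ± 0.38 in DES against CON. Of 8 T cell genes, 3 were found in the tables (Lck, Cd5 and Trac), and together they had 1.46 to 2.42 CPM in T.chuii, 1.99 to 2.93 CPM in DES and 1.92 to 4.15 CPM in CON. The other listed T cell genes were not analysed here. The 8 fibroblast genes together had 2052 to 4749 CPM in T.chuii, 1960 to 3871 CPM in DES and 3635 to 4960 CPM in CON. Their part in the Thy1 values was not tested.

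Sncg had 23.7, 59.4 and 69.1 CPM in T.chuii, 22.4, 43.2 and 81.2 CPM in DES and 56.1, 17.5 and 68.6 CPM in CON. Even outside the rod-poor libraries the DES pair differed widely, at 43.2 and 81.2 CPM. The log2 change was 0.12 ± 0.61 in T.chuii against DES, 0.18 ± 0.61 in T.chuii against CON and 0.066 ± 0.61 in DES against CON. Slc17a6 had 5.01, 23.5 and 32 CPM in T.chuii, 8.81, 20.4 and 27.4 CPM in DES and 22, 9.3 and 23.8 CPM in CON. Its highest library was 6.38 times its lowest, both of them T.chuii libraries. The log2 change was -0.076 ± 0.68 in T.chuii against DES, -0.079 ± 0.67 in T.chuii against CON and -0.0033 ± 0.67 in DES against CON.

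The neurofilament genes were led by the light subunit in FPKM. Nefl had 50.8, 192 and 232 CPM in T.chuii, 86.7, 206 and 178 CPM in DES and 192, 92.7 and 183 CPM in CON. Nefm had 9.41, 31.8 and 35 CPM in T.chuii, 14.7, 24.2 and 23.8 CPM in DES and 21.6, 11.8 and 29.6 CPM in CON. Nefh had 9.39, 29.4 and 24.9 CPM in T.chuii, 12.7, 21.1 and 15.7 CPM in DES and 20.4, 9.21 and 19.3 CPM in CON. For each subunit T.chuii 1 gave the lowest or next to lowest of the 9 values and another T.chuii library the highest, so the T.chuii group covered the ranges of DES and CON almost whole.

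The light subunit had a log2 change of -0.17 ± 0.56 in T.chuii against DES, -0.18 ± 0.56 in T.chuii against CON and -0.013 ± 0.56 in DES against CON. For Nefm these changes were 0.13 ± 0.50, 0.18 ± 0.50 and 0.052 ± 0.50. For Nefh they were 0.24 ± 0.45, 0.34 ± 0.45 and 0.092 ± 0.46. All were smaller than their SE. Ap1b1, a neighbour on the other strand, shares 745 bases with the Nefh span on chromosome 11 and had a median of 103 CPM. The kit keeps strand, but the strand setting of the counting was not stated, so reads in that overlap are uncertain for Nefh.

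**Figure D2:**
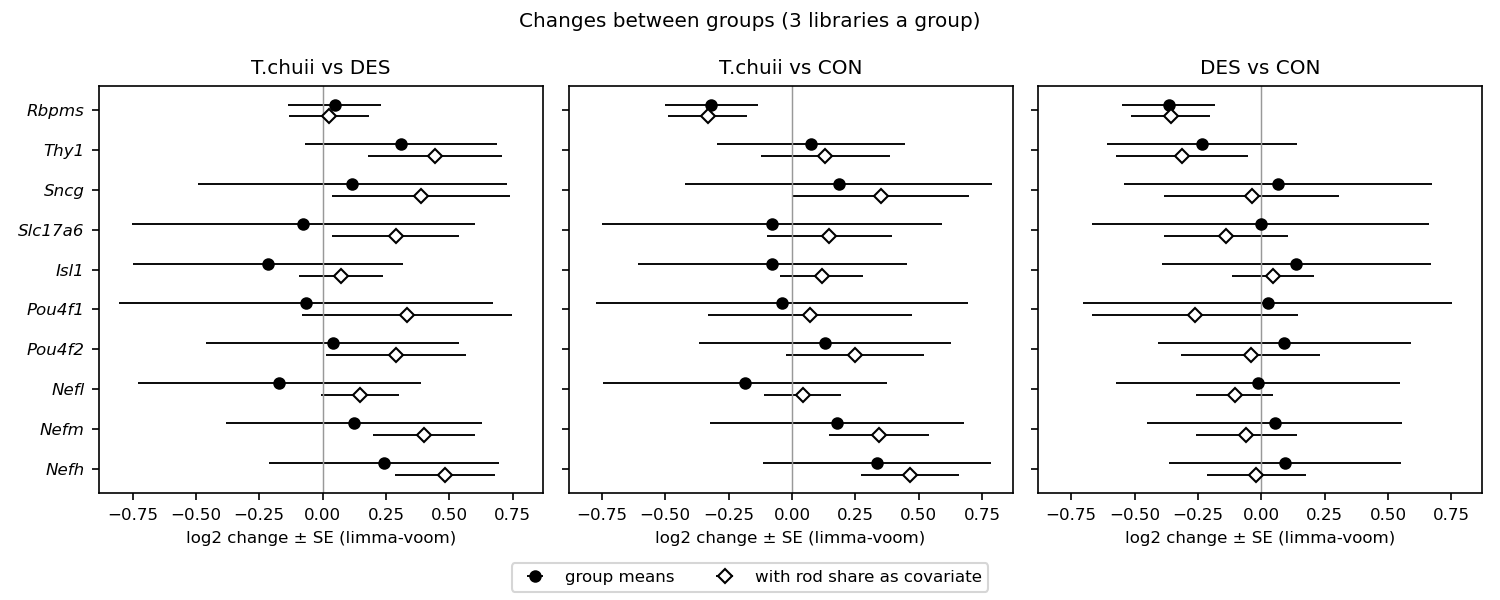
Log2 change ± SE of the 10 genes (limma-voom, horizontal axes) in T.chuii against DES, T.chuii against CON and DES against CON, from 3 libraries a group. Filled circles are the fit of group means, and open diamonds add the rod share of reads as a covariate. With the covariate, all 10 genes have a positive estimate in T.chuii against DES, and 1 of 10 in DES against CON.

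Over the 10 genes, the mean log2 value was higher in T.chuii than in DES for 6, with a median change of 0.044, against a median of -0.03 over all genes tested. In T.chuii against CON, 5 of 10 were higher (median 0.017, against -0.044 over all genes), and in DES against CON 6 of 10 were higher (median 0.038, against -0.016 over all genes). The 3 comparisons share libraries by pairs and are not independent of each other. The 95% intervals were wide, from 0.808 log2 units for Rbpms in T.chuii against CON to 3.27 for Pou4f1 in T.chuii against DES. For Nefl in DES against CON the interval was -1.26 to 1.23. Changes inside these intervals are compatible with these libraries, and the intervals were not adjusted for the number of genes tested. A p above the threshold therefore does not show that the groups were alike.

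For most members the libraries of a group differed more than the group means did. For 9 of the 10 genes, all but Rbpms, the values of T.chuii 1, DES 1 and CON 2 were all below those of the other 6 libraries. Of all genes tested, 13.8% were below in this way and 13.1% above. Slc17a6 was the gene with the largest gap within T.chuii, where T.chuii 1 stood at a log2 ratio of -2.47 to the mean of T.chuii 2 and 3, and the ratio was -1.44 in DES and -1.30 in CON. Pou4f1 had -2.01 in T.chuii, -0.68 in DES and -2.56 in CON. The rod genes, summed, had -1.84, -1.18 and -0.87 for the same 3 libraries. The neurofilament Nefl had -2.06, -1.15 and -1.01, and Thy1 had -0.65, -0.35 and -1.20, the smallest gaps of the 9 genes in T.chuii and in DES but not in CON. Rbpms showed none, with log2 ratios of 0.16, -0.044 and 0.14.

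**Figure D3:**
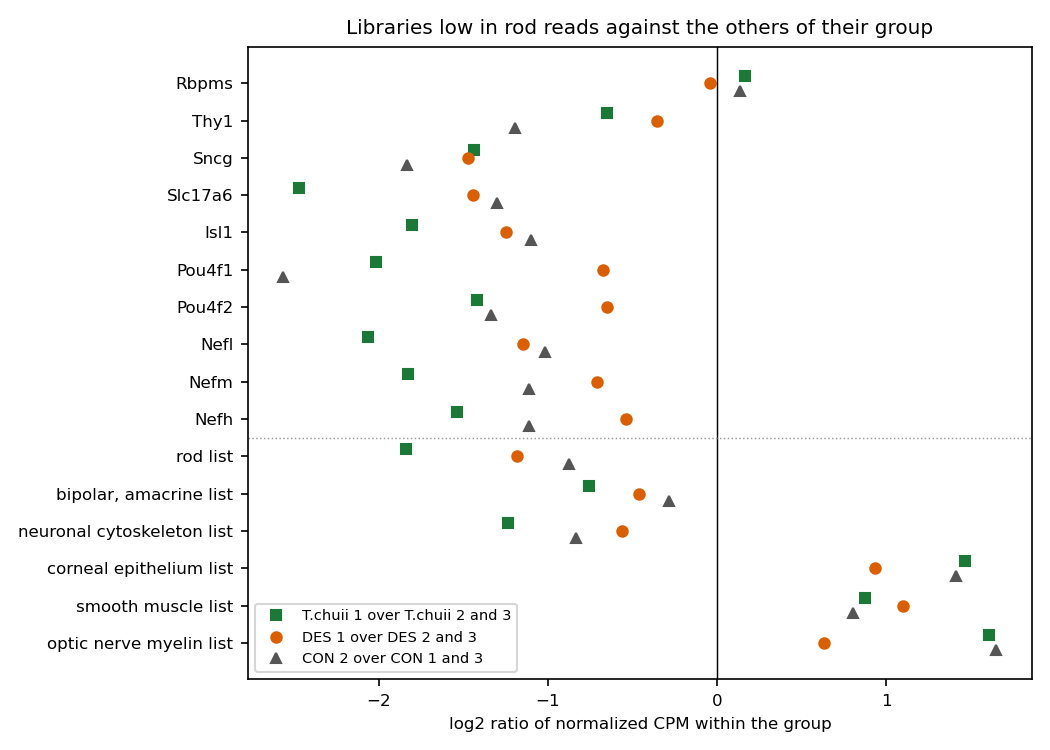
Log2 ratio of normalized CPM (horizontal axis) of the rod-poor library of each group over the mean of the other libraries of that group, for the 10 genes and, under the dotted line, for the summed CPM of 6 gene lists. Squares are T.chuii 1, circles DES 1 and triangles CON 2. Of the 10 genes only Rbpms lies near 0 in all 3, and the smooth muscle, corneal epithelium and optic nerve myelin lists lie to the right of 0.

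Other neuronal genes were low in the same libraries. Of 22 neuronal cytoskeleton and axon genes, 15 were below the other 6 libraries in all 3, among them Tubb3, Stmn2, Gap43, Uchl1 and Map2. So were 12 of 20 bipolar and amacrine genes, 4 of 9 peripheral sensory and autonomic genes and 12 of 25 other genes known from ganglion cells, such as Isl2, Pou4f3, Eomes, Chrna6 and Nrn1. Foxp2 and Penk, also known from ganglion cells, were above instead. Of 8 optic nerve myelin genes, Cnp and Mal were above the other 6 libraries in all 3 and none was below. The summed level of the 8 was 2525, 528 and 1133 CPM in T.chuii, 1294, 663 and 1011 CPM in DES and 850, 2756 and 906 CPM in CON. Mal alone, which is also made outside oligodendrocytes, supplied 1238 CPM of the sum in T.chuii 1, 1127 CPM in DES 1 and 1832 CPM in CON 2. Mobp, a myelin gene of oligodendrocytes, had 237, 19.9 and 59.6 CPM in T.chuii, 1.34, 0.303 and 0.718 CPM in DES and 0.688, 143 and 3.81 CPM in CON. The highest Mobp values thus came from T.chuii 1 and CON 2, both rod-poor, while the rod-poor DES 1 had 1.34 CPM. The part of optic nerve content in the members' values was not tested.

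Because rod reads differed between libraries, the 10 genes were also set against the rod reads of their own library. Isl1 was then the steadiest, with 1.93, 1.91 and 1.85 reads per 1000 rod reads in T.chuii, 1.71, 1.69 and 1.9 in DES and 1.8, 1.57 and 1.86 in CON. Nefl varied little more, with 5.21, 5.77 and 6.34 in T.chuii, 5.23, 5.09 and 5.12 in DES and 6.14, 5.26 and 5.47 in CON. The DES values of Nefl lay just below those of CON, by less than the spread inside CON. Highest over lowest was 1.23 for Isl1 and 1.25 for Nefl, where in CPM it was 3.64 for Isl1 and 4.57 for Nefl. Rbpms went the other way, with highest over lowest of 4.85 per rod read against 1.46 in CPM.

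Nefm had 0.965, 0.958 and 0.955 reads per 1000 rod reads in T.chuii, 0.885, 0.598 and 0.682 in DES and 0.693, 0.672 and 0.887 in CON. All T.chuii libraries lay above all DES and all CON libraries. Nefh had 0.963, 0.886 and 0.68 in T.chuii, 0.764, 0.52 and 0.45 in DES and 0.656, 0.522 and 0.578 in CON, so that T.chuii lay above CON but overlapped DES. No other member separated in the T.chuii comparisons. That is 1 of 10 members higher in T.chuii than in DES, 2 of 10 higher in T.chuii than in CON and 1 of 10 (Nefl) lower in DES than in CON. By the same measure, 1.46% of all genes were higher and 0.0893% lower in T.chuii than in DES, 3.19% were higher and 0.221% lower in T.chuii than in CON, and 0.611% were higher and 0.794% lower in DES than in CON. These ratios have no test.

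In FPKM, the ratio of the heavy to the light subunit was 0.156, 0.13 and 0.0908 in T.chuii, 0.124, 0.0866 and 0.0743 in DES and 0.0903, 0.084 and 0.0893 in CON. T.chuii lay above CON, by the thinnest of margins for T.chuii 3, and overlapped DES. The ratio of the medium to the light subunit was 0.194, 0.174 and 0.158 in T.chuii, 0.177, 0.123 and 0.139 in DES and 0.118, 0.134 and 0.169 in CON, with all groups overlapping. In both injected groups the rod-poor library had the highest value of each ratio, which in CON was not so.

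**Figure D4:**
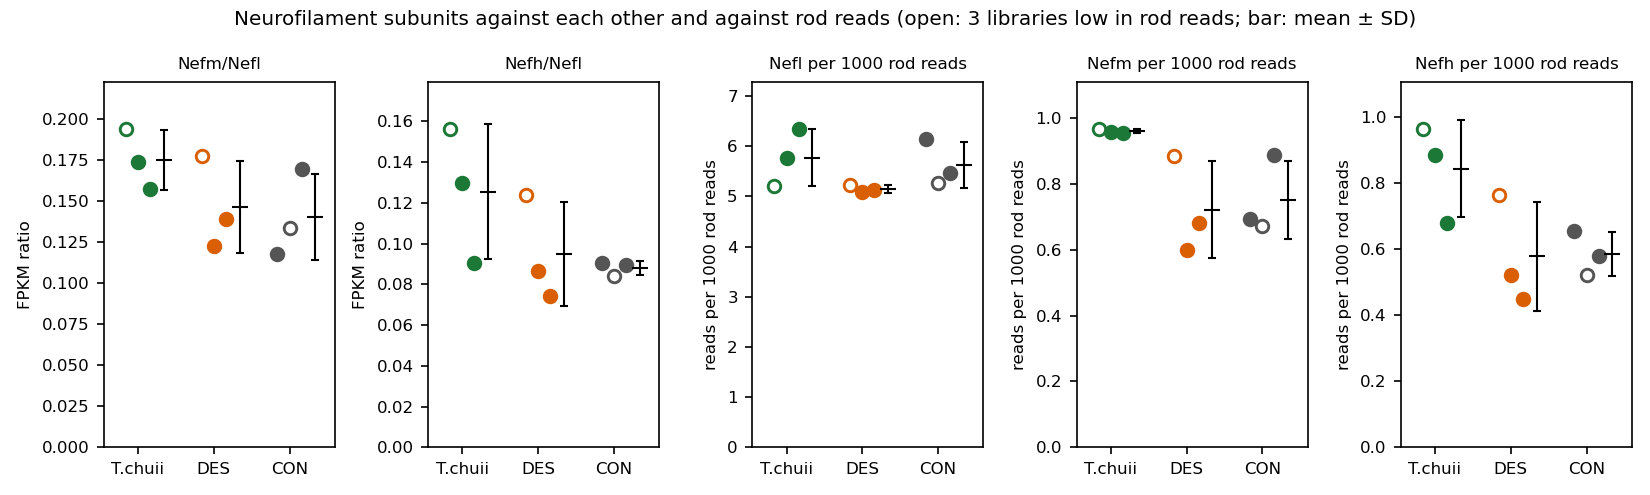
Neurofilament genes by library in T.chuii, DES and CON: the FPKM ratios Nefm/Nefl and Nefh/Nefl, and reads of Nefl, Nefm and Nefh per 1000 rod reads (all vertical axes from 0). Points are libraries, open points those low in rod reads, and bars the mean ± SD (n = 3). The 3 T.chuii values of Nefm per 1000 rod reads, 0.955 to 0.965, lie above all DES and CON values.

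With the rod share of reads as a covariate in the fit, the SE was smaller for all 10 genes in all 3 comparisons, and still none passed. All 10 were higher in T.chuii than in DES (median log2 change 0.31, where 48.5% of all genes were higher), with Rbpms at only 0.025 ± 0.16. In T.chuii against CON 9 of 10 were higher (47.4% of all genes), and in DES against CON 1 of 10 (46% of all genes). Because all members but Rbpms correlated closely, these counts are not counts of independent genes. Nefh had a log2 change of 0.48 ± 0.20 in T.chuii against DES (limma-voom adjusted p = 0.88) and of 0.46 ± 0.19 in T.chuii against CON (limma-voom adjusted p = 0.338). Nefm had 0.40 ± 0.20 and 0.34 ± 0.20 in these comparisons. Without T.chuii 1, DES 1 and CON 2, Nefh was higher in T.chuii than in DES by 0.56 ± 0.22 (limma-voom adjusted p = 0.855) and Nefm by 0.48 ± 0.21. The same fit gave Rbpms -0.30 ± 0.20 in DES against CON and Thy1 -0.53 ± 0.25 (limma-voom adjusted p = 0.9997). Single libraries set the signs: without CON 2 none of the 10 genes was higher in T.chuii or in DES than in CON, with median changes of -0.38 and -0.36, and without T.chuii 1 a total of 9 were higher in T.chuii than in DES and 9 than in CON, with medians of 0.55 and 0.60.

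Same-numbered T.chuii and DES libraries had positive correlations of their deviations from the group means. A fit with the number as a block was therefore run with these 6 libraries. The ground for it is weak. The highest r, 0.558, joined T.chuii 1 and DES 1, both rod-poor, and T.chuii 3 and DES 2, of unlike number, had 0.463. The blocked fit called 2 of 21287 genes, Mobp and Nmrk2, both higher in T.chuii. The fits to all 9 libraries, with or without the block, called 0 in this comparison, and a fit to the 6 libraries without the block was not run. No member was called in any of these fits, and the blocked fit to 6 libraries gave Nefh 0.29 ± 0.25, Thy1 0.31 ± 0.24 and Nefl -0.17 ± 0.23.

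In a wider set of genes known from ganglion cells, no gene passed the test. Of 26 listed genes 25 were tested, with 16 higher in T.chuii than in DES (median 0.098), 13 higher in T.chuii than in CON (median 0.028) and 10 higher in DES than in CON (median -0.052), and 0 were called. Scn4b, a sodium channel subunit, averaged 3.78 ± 2.86 CPM in T.chuii, 2.26 ± 2 CPM in DES and 0.753 ± 0.45 CPM in CON, and its log2 change in T.chuii against CON was 2.27 ± 0.74 (limma-voom adjusted p = 0.986). Irx3, a homeobox factor, had 2.59 ± 0.574 CPM in T.chuii and 4.06 ± 1.23 CPM in CON. The opioid precursor Penk had 469, 412 and 281 CPM in T.chuii and 453, 94.5 and 302 CPM in DES, with overlap.

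Of 22 neuronal cytoskeleton and axon genes, 14 were higher in T.chuii than in DES (median 0.049), 13 higher in T.chuii than in CON (median 0.049) and 9 higher in DES than in CON (median -0.039), and 0 were called. Kif5a, a kinesin motor that carries neurofilaments along axons in mice, had 28.8, 41.6 and 33.7 CPM in T.chuii, 14.3, 27.9 and 18.3 CPM in DES and 26.5, 23.9 and 24.9 CPM in CON. T.chuii lay above both other groups, as for no other gene of the 22, and Kif5a had the smallest p of the list in both comparisons. Over all genes tested, 2.3% were higher without overlap in T.chuii than in DES, and 5.45% than in CON. The log2 change of Kif5a was 0.81 ± 0.26 in T.chuii against DES (limma-voom adjusted p = 0.9999) and 0.46 ± 0.26 in T.chuii against CON. Prph, which encodes peripherin, an intermediate filament of peripheral axons, averaged 1.67 ± 1.13 CPM in T.chuii, 2.63 ± 0.677 CPM in DES and 2.35 ± 0.413 CPM in CON, with overlap.

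Genes known to be induced in injured ganglion cells or other cut neurons gave no called gene either, with 10 of 15 higher in T.chuii than in DES (median 0.11), 7 of 15 in T.chuii than in CON (median -0.041) and 5 of 15 in DES than in CON (median -0.24). Jun, the AP-1 factor of the injury response, had 56.4, 43.3 and 37.6 CPM in T.chuii, 256, 143 and 35.1 CPM in DES and 96.6, 67.7 and 83.6 CPM in CON. The DES values of Jun ran from the lowest to the highest of the 9, and the log2 change in T.chuii against DES was -1.25 ± 0.57 (limma-voom adjusted p = 0.9999). Sprr1a averaged 5.14 ± 5.09 CPM in T.chuii and 12.4 ± 9.36 CPM in CON, and Hrk stayed under 1 CPM on average in T.chuii (0.408 ± 0.155) and in DES (0.204 ± 0.193).

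Bipolar and amacrine genes, which share Isl1 with ganglion cells, were higher in T.chuii than in DES for 4 of 20 (median -0.13), in T.chuii than in CON for 1 of 20 (median -0.21) and in DES than in CON for 7 of 20 (median -0.09). The 1 gene higher in T.chuii than in CON was Sox2, at 8.97 ± 2.6 CPM against 5.34 ± 2.35 CPM. Of the 14 rod genes, 2 were higher in T.chuii than in DES, 4 in T.chuii than in CON and 11 in DES than in CON. None of these genes was called.

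The genes whose log2 CPM over the 9 libraries was most like that of each member were ranked among 12252 protein-coding genes with a mean of at least 5 CPM. The rod-poor libraries stand apart for 9 members, so Pearson's r is given over all 9 libraries and then over the other 6, as a description. Nefl was most like Zcchc18 (r of 0.997, then 0.928), Nefm like the sodium channel Scn1a (0.983, then 0.96) and Nefh like Rufy2 (0.991, then 0.961). Isl1 was most like Nxph1, a neurexin ligand (0.998, then 0.934), Slc17a6 like the potassium channel partner Kcnip4 (0.993, then 0.958), Sncg like Resp18 (0.988, then 0.882) and Thy1 like Camk2n1 (0.976, then 0.907). Pou4f1 was most like Cdk5r1 (0.98, then 0.742) and Pou4f2 like Cxxc4 (0.987, then 0.625), with lower values over 6 libraries than for the other members. Rbpms was most like Thbs1, which encodes thrombospondin (0.942, then 0.987), followed by the glucocorticoid-responsive Fkbp5 (0.925, then 0.976) and by Rnf126. By ranks over the 9 libraries (Spearman's rho) the likeness to Rbpms was 0.967 for Thbs1, but only 0.7 for Fkbp5 and 0.6 for Rnf126. None of the 3 genes most like Rbpms was among the 3 most like any other member. Hecw1 was the only gene among the first 3 for more than 1 member, namely Pou4f1 and Pou4f2.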

How the data were processed

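RNA sequencing of 9 whole-eyeball libraries (3 groups of 3, grouped by sample title) was analysed. The submitters' processing notes name the build mm10 and these tools: StringTie 2.1.3b, HISAT2 2.1.0, Trimmomatic 0.38, FastQC 0.11.7 and Bowtie2 2.3.4.1. How reads were counted, with which strand setting, and how rows were filtered was not stated. The deposited tables hold a raw read count and an FPKM value per gene and library, per the file headers. Their transcript field spans a varying number of cells, so both values were taken from the end of the row. Every gene had at least 1 read in every library, so a gene with no reads in a library could not have been listed.

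Genes were kept at the CPM that equals 10 reads in the median library, in at least 3 libraries, with 15 reads in total. Normalization used trimmed means of M-values (own code), and the test was limma-voom (R 4.3.3, limma 3.58.1; tables in Python 3.11.15, pandas 2.3.3), with all 9 libraries in 1 fit, 6 residual degrees of freedom, two-sided, and Benjamini-Hochberg adjustment over all 21287 genes at 0.05. The test was also run on simulated counts with known changes. These gave every gene the same relative spread and held no difference in retinal content within a group. The simulation therefore cannot show how the test performs on libraries such as these. A quasi-likelihood count test was not run, because the columns were not accepted as counts by header position. Values are means ± SD, and changes are log2 differences ± SE of the fit, which weights log values and can differ in sign from the difference of mean CPM.

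The 10 members and the 13 gene lists (173 entries, 158 found) were chosen with earlier results of these data known, as was the rod list used to describe retinal content. From each list described, the 2 genes with the smallest p in a comparison were to be named, and the 3 genes most like each member in Pearson's r.

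Same-numbered T.chuii and DES libraries correlated in their deviations from the group means, with r of 0.558, 0.342 and 0.17. In DES against CON the same check gave -0.297, -0.244 and 0.227, and in T.chuii against CON -0.295, -0.371 and 0.293. Libraries of unlike number also correlated, with r from -0.564 (T.chuii 3 and DES 1) to 0.463 (T.chuii 3 and DES 2) in T.chuii against DES. The labels do not say what a number shares, and the file headers number the libraries differently.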

Additional observations from a re-analysis of the deposited data

How the results depend on the processing

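Of 490 alternative estimates for the 10 genes (17 settings, 3 comparisons), 385 kept the direction of the main value and 105 turned to the other, while 0 passed the threshold, and the lowest adjusted p was 0.338. Fits that left out a library of the group not compared could hardly move an estimate. For Pou4f1 in DES against CON they gave 0.024 to 0.027, where the main value was 0.025. The 385 are therefore not a measure of stability. Most main changes were far smaller than their SE, and the cause of single reversals was not tested. The count of called genes was 2 with a replicate block in the 6 T.chuii and DES libraries (added after seeing the data), 1 in T.chuii against CON without the 3 rod-poor libraries (AA386476), and 0 to 15 in DES against CON and 0 to 18 in T.chuii against CON with each library left out in turn. The upper counts came without DES 2, were lens genes for the most part, and held no member.

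Reversed log2 changes were as follows. In DES against CON, the rod covariate gave Pou4f1 -0.26, Pou4f2 -0.042, Sncg -0.037, Nefm -0.060 and Nefh -0.019. Limma-trend on log2(FPKM + 0.1) gave Pou4f1 -0.071 and Nefm -0.011, and on log2(FPKM + 1) Pou4f1 -0.11, Pou4f2 -0.020, Nefm -0.020 and Nefh -0.0093. Without the 3 rod-poor libraries the values were Pou4f1 -0.61, Pou4f2 -0.15, Sncg -0.060, Nefl 0.031, Nefm -0.083, Nefh -0.11 and Slc17a6 0.033. The replicate block gave Slc17a6 0.13. In T.chuii against DES, the rod covariate gave Pou4f1 0.33, Nefl 0.15, Slc17a6 0.29 and Isl1 0.073, log2(FPKM + 1) Pou4f1 0.015, the replicate block in 6 libraries Pou4f1 0.017, and the 6 rod-rich libraries Rbpms -0.022, Pou4f1 0.37, Nefl 0.14 and Slc17a6 0.23. In T.chuii against CON, the rod covariate gave Pou4f1 0.070, Nefl 0.043, Slc17a6 0.15 and Isl1 0.12, log2(FPKM + 0.1) Thy1 -0.032, log2(FPKM + 1) Thy1 -0.043, the replicate block Slc17a6 0.070, and the 6 rod-rich libraries Nefl 0.17, Thy1 -0.12, Slc17a6 0.26 and Isl1 0.15.

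With each library left out in turn, the changes in DES against CON ran from -0.83 to 0.53 for Pou4f1, -0.36 to 0.32 for Pou4f2, -0.54 to 0.54 for Sncg, -0.35 to 0.37 for Nefl, -0.33 to 0.37 for Nefm, -0.29 to 0.28 for Nefh, -0.45 to 0.48 for Slc17a6 and -0.23 to 0.56 for Isl1. In T.chuii against DES they ran from -0.0069 to 0.094 for Rbpms, -0.48 to 0.59 for Pou4f1, -0.26 to 0.50 for Pou4f2, -0.36 to 0.59 for Sncg, -0.58 to 0.52 for Nefl, -0.22 to 0.72 for Nefm, -0.059 to 0.74 for Nefh, -0.61 to 0.71 for Slc17a6 and -0.63 to 0.38 for Isl1. In T.chuii against CON they ran from -0.90 to 0.61 for Pou4f1, -0.32 to 0.59 for Pou4f2, -0.43 to 0.66 for Sncg, -0.59 to 0.51 for Nefl, -0.20 to 0.77 for Nefm, -0.044 to 0.83 for Nefh, -0.33 to 0.30 for Thy1, -0.62 to 0.71 for Slc17a6 and -0.45 to 0.52 for Isl1. Rbpms stayed lower in DES and in T.chuii than in CON under every alternative run. The replicate block over all 9 libraries called 0 genes in each comparison.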

Other observations

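Lists of other cell types that neurofilament, Thy1 or Rbpms reads could come from were also counted, and 0 of their genes were called. Schwann cell genes were higher in T.chuii than in DES for 8 of 8 (median log2 change 0.41) and in T.chuii than in CON for 6 of 8, and in DES than in CON for 5 of 8. The myelin protein gene Pmp22 averaged 252 ± 74.4 CPM in T.chuii and 156 ± 0.721 CPM in CON (SD, n = 3). Optic nerve myelin genes were higher in T.chuii than in DES for 6 of 8 and in T.chuii than in CON for 5 of 8, and in DES than in CON for 1 of 8. Mbp averaged 326 ± 319 CPM in T.chuii and 48.3 ± 17.2 CPM in DES, with a T.chuii 1 value of 690 CPM.

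Peripheral sensory and autonomic genes, 9 of 13 found, were higher in T.chuii than in DES for 3, in T.chuii than in CON for 5 and in DES than in CON for 6. Calca, the gene of the sensory peptide CGRP, averaged 1.4 ± 0.101 CPM in T.chuii and 0.921 ± 0.295 CPM in CON, without overlap. Over all genes tested, 5.45% were higher in T.chuii than in CON without overlap. Of 3 T cell genes, 1 was higher in T.chuii than in DES, 1 in T.chuii than in CON and 1 in DES than in CON. Fibroblast genes were higher in DES than in CON for 0 of 8, with the collagen gene Col1a1 at 28.2 ± 7.17 CPM in DES and 84.1 ± 34.6 CPM in CON (log2 change -1.51 ± 0.46, limma-voom adjusted p = 1). In T.chuii they were higher than in DES for 5 of 8 and than in CON for 3 of 8. Smooth muscle genes were higher in T.chuii than in DES for 8 of 8, in T.chuii than in CON for 7 of 8 and in DES than in CON for 4 of 8. Des, the muscle intermediate filament gene desmin, averaged 198 ± 134 CPM in T.chuii and 53.6 ± 9.04 CPM in CON. Corneal epithelium genes were higher in 0 of 8 in each of the 3 comparisons.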
